A study of Mus musculus with 6 samples.

Results

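Small leucine-rich proteoglycans were examined in bulk RNA-seq of the prefrontal cortex (PFC) of 6 mice. The members were taken by gene symbol: Dcn, Lum, Fmod, Ogn, Omd, Bgn, Prelp and Aspn, 8 of the 54429 symbols in the count tables, and each symbol was found in every library. The control mice (WT) were C57BL/6 x C3H and received vehicle. The Tau mice carried PS19(P301S), a transgene for mutant human tau driven by the mouse prion protein promoter, and received vehicle. The treated mice carried the same transgene and received UNC0642, which blocks EHMT1 and EHMT2. These methyltransferases write H3K9me2, a histone mark of silent chromatin. Each group had 2 mice of 6 months of age. UNC0642 and vehicle were given by daily injection. The promoter of the transgene is active mainly in neurons in the brain, and it adds mutant human tau to the mouse's own, which limits the mouse as a model.

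These proteins are small secreted cores built of leucine-rich repeats, and most carry glycosaminoglycan chains. They bind collagen fibrils, set fibril width and spacing, and hold growth factors of the TGF-β and BMP families in the matrix. In the brain their transcripts come mainly from fibroblasts of the meninges and of the larger vessels rather than from neurons. Decorin (Dcn) and biglycan (Bgn) carry chondroitin or dermatan sulfate, and asporin (Aspn) is their close relative without such a chain. Fibromodulin (Fmod), lumican (Lum), osteoadherin (Omd) and PRELP (Prelp) form the branch that is mostly substituted with keratan sulfate. Osteoglycin (Ogn) belongs to a smaller branch.

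The genes lie in clusters of the genome (GRCm38). Dcn is on chromosome 10 at chr10:97479609-97518143 and Lum lies 47.0 kb downstream at chr10:97565128-97572703, both on the plus strand. Prelp (chr1:133910304-133921414, minus strand) and Fmod (chr1:134037254-134048277, plus strand) are 115.8 kb apart. Aspn (chr13:49544443-49567565), Omd (chr13:49582462-49592822) and Ogn (chr13:49608046-49624501) follow each other on the plus strand with gaps of 14.9 and 15.2 kb, and all 3 lie within the gene body of Cenpp on the opposite strand. Bgn stands alone on the X chromosome (chrX:73483602-73495933, plus strand). The exons of Ogn and Omd share no base with those of Cenpp, and those of Aspn share 7 bases. Prelp shares 350 exonic bases with the antisense gene Gm15851, which had 0 counts in every library.

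The promoters of the 4 genes with the largest fitted differences are shown for orientation, as the 250 bases upstream of the RefSeq transcription start in GRCm38.p6, written 5′ to 3′ on the strand of the gene. Fmod (chr1:134037004-134037253, plus strand), Ogn (chr13:49607765-49608014, plus strand), Omd (chr13:49582212-49582461, plus strand) and Bgn (chrX:73483351-73483600, plus strand) are given. Capitals mark matches on either strand to the TATA box letters TATAAA, the GC box letters GGGCGG or the CAAT box letters CCAAT, and neighbouring matches can overlap.
Fmod: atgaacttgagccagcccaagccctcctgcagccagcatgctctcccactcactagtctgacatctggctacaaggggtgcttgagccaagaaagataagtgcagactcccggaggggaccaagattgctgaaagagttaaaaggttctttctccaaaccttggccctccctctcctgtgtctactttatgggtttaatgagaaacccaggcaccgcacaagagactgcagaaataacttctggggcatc
Ogn: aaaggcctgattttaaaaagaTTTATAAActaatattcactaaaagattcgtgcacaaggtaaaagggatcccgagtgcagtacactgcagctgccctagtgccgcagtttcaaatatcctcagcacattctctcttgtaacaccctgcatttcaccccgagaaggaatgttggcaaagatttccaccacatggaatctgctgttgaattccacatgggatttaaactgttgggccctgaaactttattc
Omd: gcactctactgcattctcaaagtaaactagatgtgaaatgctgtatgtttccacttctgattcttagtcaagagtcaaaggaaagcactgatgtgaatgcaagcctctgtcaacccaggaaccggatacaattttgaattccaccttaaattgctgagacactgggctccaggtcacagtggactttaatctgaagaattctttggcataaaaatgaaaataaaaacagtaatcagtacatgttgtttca
Bgn: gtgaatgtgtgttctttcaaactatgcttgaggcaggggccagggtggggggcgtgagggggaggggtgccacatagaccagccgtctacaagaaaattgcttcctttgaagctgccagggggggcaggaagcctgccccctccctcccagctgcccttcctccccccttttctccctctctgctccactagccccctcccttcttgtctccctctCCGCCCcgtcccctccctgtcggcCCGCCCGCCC
The Bgn window held 3 matches to GGGCGG, at 34, 10 and 6 bases before the start, with a GC content of 64.4%. The Ogn window held 2 overlapping matches to TATAAA, both near the far end of the window. That window ends at 49608014, whereas the GENCODE start of Ogn is at 49608046, so positions before the start depend on the annotation. The Fmod and Omd windows held no match to these 3 motifs and had GC contents of 51.2% and 38.4%, beside a median of 52.4% over 32851 RefSeq promoters. Of those promoters, 12.4% held TATAAA, 32.7% held GGGCGG and 33.9% held CCAAT. The same windows were present for Prelp and Aspn, so 6 of the 8 genes were matched. A match is a run of letters and was not tested as a site.

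The libraries held between 17005664 and 28972176 counts, and 3 counts correspond to 0.107 to 0.178 CPM, the count scaled to library size. The 8 genes were low in this tissue and together gave 393 to 1121 counts per library. Neuronal markers were abundant in every library, with Slc17a7, the vesicular glutamate transporter of cortical neurons, at 846 to 1016 CPM. Values of a group are given in the order replicate 1, replicate 2. In 1 library a check of the transgene did not go with the label. Prnp, whose promoter drives the transgene, was at 1652 CPM in the library labelled WT replicate 1, at 873 CPM in WT replicate 2, and at 1470 to 1694 CPM in the 4 Tau libraries. Mapt, the endogenous tau gene, was at 576, 449 and 570.5 to 614 CPM in the same order. Cldn5 encodes a tight-junction protein of the blood-brain barrier and was named after its values were seen. Its level was 26.1 and 18.5 CPM in WT as labelled and 10.3 to 16.0 CPM in the other 4. Cldn5 is also among the genes that the study selected on these libraries. Over all genes tested, 43.2% did not overlap between Tau and WT, so this 1 gene does not bear on the genotype. The genotype of the library labelled WT replicate 1 was not tested further, and without it every comparison with WT rests on 1 WT mouse. The library labelled WT replicate 1 and both UNC0642 libraries had 2 to 5 counts of Xist and 1705 to 2411 of the Y-linked Ddx3y, whereas WT replicate 2 and both Tau libraries had 4104 to 8107 of Xist and 2 to 18 of Ddx3y. The Y-linked Eif2s3y, Kdm5d and Uty had 676 to 1334 counts in the first 3 libraries and 0 to 14 in the others. Treatment and sex-linked expression therefore cannot be told apart between the Tau and UNC0642 libraries by themselves. Tau replicate 2 had a summed oligodendrocyte marker level of 5114 CPM, against 1327 to 2709 CPM in the other libraries. For the 8 genes and the named genes of other lists, values without the library labelled WT replicate 1 or Tau replicate 2 are given where leaving it out ended a call or moved the value strongly.

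Levels were compared between genes per kilobase of exon (CPM per kb), over the union of all annotated exons, which is longest for Bgn (6099 bases) and Dcn (5838 bases). Ogn was highest at 2.85 CPM per kb over the 6 libraries, followed by Fmod at 1.90 and Dcn at 1.32. Prelp (0.943), Lum (0.666), Aspn (0.584), Bgn (0.578) and Omd (0.487) were lower on the same scale. The order of the group means at the top was not the same in each group. In WT and in UNC0642 mice Fmod stood above Dcn, at 2.41 against 1.42 and at 2.13 against 1.35 CPM per kb. In Tau mice the mean of Fmod was 1.15 and that of Dcn 1.21. This order came from Tau replicate 2 alone, with Fmod at 0.8139 and Dcn at 1.196 CPM per kb. Tau replicate 1 had Fmod above Dcn, at 1.492 against 1.219, as did each WT and UNC0642 library. Neighbours at the lower end differed by less than the spread of the libraries, since Aspn alone ranged from 0.385 to 0.747 CPM per kb within WT.

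**Figure D1:**
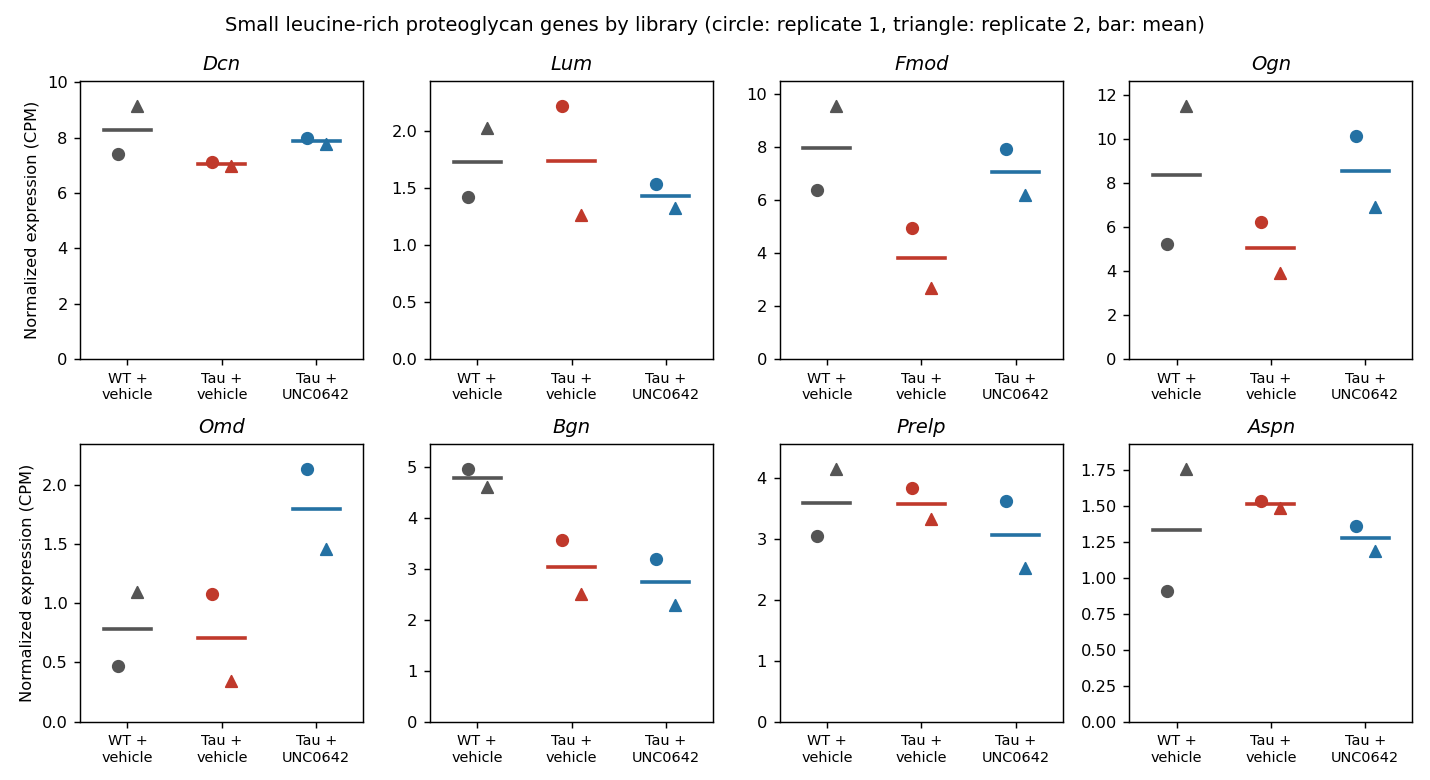
Normalized expression (CPM, y axis from 0) of the 8 genes in the 6 libraries, with replicate 1 as a circle, replicate 2 as a triangle and the group mean as a bar. Both Tau libraries lie below both WT and both UNC0642 libraries for Fmod, and both UNC0642 libraries lie above the other 4 for Omd.

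To ask what the transgene changed, Tau mice were compared with WT mice. Fmod and Bgn were lower in Tau mice, and the other 6 genes did not pass the threshold, which was a fold change of at least 1.2 with an unadjusted p-value under 0.05. Fmod was 2.04-fold lower and Bgn was 1.55-fold lower. Over all 20409 genes tested, 9.81% passed in either direction and 6.1% passed with a lower level, and a count of 2 among 8 genes is too small to set the family apart from that background. None of the 8 genes had an adjusted p-value (edgeR quasi-likelihood test, Benjamini-Hochberg) under 0.05, where 0.157% of all genes did, and 2 had an unadjusted p under 0.05. The DESeq2 Wald test and limma-voom also gave 0 genes by adjusted p (1 gene had no adjusted p in DESeq2) and 2 genes each by the unadjusted threshold, Fmod with Ogn and Fmod with Bgn. The median log2 fold change of the 8 genes was -0.15, and that of all genes tested was -0.0001. In bulk tissue, fewer cells of a type and less RNA per cell cannot be told apart.

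Fmod encodes the keratan sulfate proteoglycan that controls collagen cross-linking and fibril thickness. Its level was 6.39 CPM in the library labelled WT replicate 1 and 9.53 in WT replicate 2, 4.93 and 2.69 CPM in Tau replicates 1 and 2, and 7.93 and 6.17 CPM in UNC0642 replicates 1 and 2. Both Tau libraries were below all 4 others, so the Tau group overlapped with neither of the other groups. The group levels were 7.96 ± 2.2 CPM in WT, 3.81 ± 1.6 in Tau and 7.05 ± 1.2 in UNC0642 (mean ± SD, n = 2 each). The log2 fold change between Tau and WT was -1.03 with a standard error of 0.30 and a 95% interval of -1.70 to -0.37 (edgeR quasi-likelihood test, adjusted p = 0.268). Without the library labelled WT replicate 1 the value was -1.29, and without WT replicate 2 it was -0.71 and the threshold was no longer passed. Leaving out Tau replicate 1 gave -1.56 and leaving out Tau replicate 2 gave -0.69. Of 15 alternative fits, 14 kept an unadjusted p under 0.05. Fmod is among the genes that the study itself selected on these libraries, so its direction here is not independent evidence.

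Bgn encodes biglycan, which carries glycosaminoglycan chains and can also act as a signal through Toll-like receptors. Its level was 4.97 CPM in the library labelled WT replicate 1 and 4.61 in WT replicate 2, 3.57 and 2.52 CPM in the Tau libraries, and 3.20 and 2.29 CPM in the UNC0642 libraries. The WT libraries were the 2 highest and overlapped with neither transgenic group, while Tau and UNC0642 interleaved. Between Tau and WT the log2 fold change was -0.64 (SE 0.28, 95% interval -1.25 to -0.02; edgeR, adjusted p = 0.394). This call was close to the threshold and held in 10 of 15 alternative fits. It was lost without the library labelled WT replicate 1 (-0.58), without WT replicate 2 (-0.68), without Tau replicate 2 (-0.42), with a sex-linked covariate (-0.57) and in the DESeq2 Wald test (-0.64). Bgn is X-linked, and the 2 WT libraries of opposite sex-linked expression had 4.97 and 4.61 CPM. With 1 library of each pattern, sex-linked expression cannot be told apart from other differences between these mice.

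Ogn encodes osteoglycin, a collagen-binding protein of bone and connective tissue. Its level was 5.20 CPM in the library labelled WT replicate 1 and 11.5 in WT replicate 2, 6.22 and 3.89 CPM in Tau, and 10.1 and 6.92 CPM in UNC0642. The 2 WT libraries differed more than any group means did, and WT and Tau overlapped. The Tau to WT log2 fold change of -0.70 (SE 0.36, 95% interval -1.50 to 0.10) did not pass the test (edgeR, adjusted p = 0.453). Of 15 alternative fits, 5 passed the threshold. The value was -1.16 without the library labelled WT replicate 1, -1.10 without Tau replicate 1 and -1.05 with a sex-linked covariate, which all passed, and -0.02 without WT replicate 2 and -0.42 without Tau replicate 2, which did not. No filter (-0.71) and the DESeq2 Wald test (-0.71) gave the other fits that passed.

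Decorin and the remaining genes of the family did not pass the test between Tau and WT. Dcn, which binds collagen and TGF-β and restrains several receptor tyrosine kinases, was at 7.41 CPM in the library labelled WT replicate 1 and 9.14 in WT replicate 2, at 7.11 and 6.98 CPM in Tau, and at 7.99 and 7.76 CPM in UNC0642. Its Tau libraries were the lowest 2 of 6, but the log2 fold change was -0.23 (SE 0.18, 95% interval -0.62 to 0.16; edgeR, adjusted p = 0.626), and it lay between -0.38 and -0.07 with each library left out in turn. Lumican, which spaces collagen fibrils in the cornea and skin, ranged from 1.26 to 2.22 CPM over the 6 libraries, and its highest and lowest values were both in Tau mice. PRELP, which anchors basement membranes to collagen, ranged from 2.51 to 4.14 CPM. Asporin, which binds collagen and TGF-β, ranged from 0.907 to 1.76 CPM, and both extremes were in libraries labelled WT. The fitted log2 fold changes of Lum (0.04), Prelp (-0.0006), Aspn (0.18) and Omd (-0.07) were all smaller in size than their standard errors. Their intervals were wide and reached from -0.82 to 0.89 for Lum and from -0.64 to 0.64 for Prelp. Those of Aspn and Omd reached from -0.72 to 1.09 and from -1.41 to 1.27. Differences within these bounds remain compatible with the data at this depth and number of mice. The groups did not overlap for Fmod, Bgn and Dcn, 3 of 8 genes, and 43.2% of all genes tested had groups that did not overlap in this comparison.

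**Figure D2:**
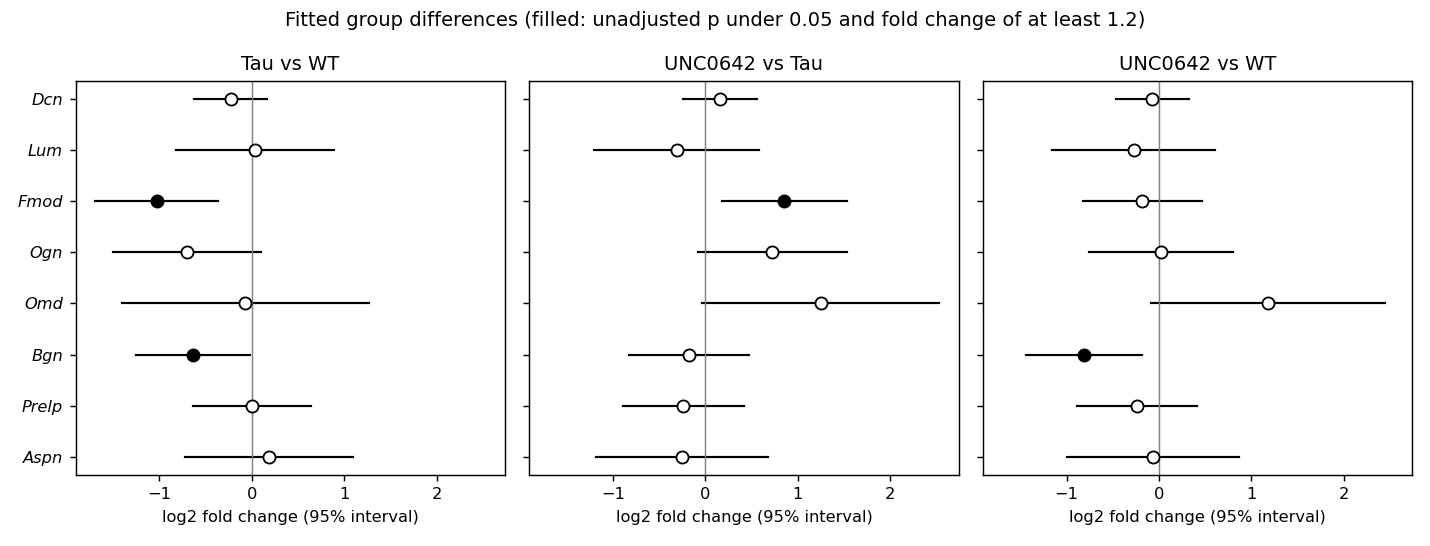
Fitted log2 fold change (x axis) with its 95% interval for the 8 genes in each of the 3 comparisons, where filled points passed an unadjusted p under 0.05 with a fold change of at least 1.2. Fmod is filled to the left in Tau against WT and to the right in UNC0642 against Tau, and Bgn is filled to the left in both comparisons with WT.

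To ask how levels differed with UNC0642 in mice with the transgene, treated and vehicle-treated Tau mice were compared. These groups also had opposite sex-linked expression, which cannot be told apart from treatment here. Fmod was 1.80-fold higher after UNC0642 and was the only one of the 8 genes to pass. The study listed Fmod from these libraries as lower in Tau and reversed by UNC0642. The direction of Fmod in this comparison is therefore not independent evidence either. Omd and Ogn had higher values in both treated mice than in either vehicle-treated mouse and did not pass the test. Among all genes tested, 7.69% passed in either direction and 3.73% passed with a higher level. By adjusted p-value (edgeR, Benjamini-Hochberg) 0 of the 8 were under 0.05, beside 0.0196% of all genes tested, and 1 had an unadjusted p under 0.05. The DESeq2 Wald test and limma-voom gave 0 by adjusted p and 2 each by the unadjusted threshold, Fmod with Ogn and Fmod with Omd. The median of the 8 genes was -0.01 and that of all genes tested was -0.0023 (log2 fold change). The comparison shares its 2 Tau libraries with the comparison of Tau against WT, so opposite signs in the 2 comparisons are not independent of each other.

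For Fmod the log2 fold change was 0.85 (SE 0.30, 95% interval 0.17 to 1.53; edgeR, adjusted p = 0.480). The treated libraries, at 7.93 and 6.17 CPM, were between the 2 WT libraries in the case of replicate 1 and just below both in the case of replicate 2. The call was lost without Tau replicate 2 (0.51) and without UNC0642 replicate 1 (0.67), and 13 of 15 alternative fits kept an unadjusted p under 0.05 (edgeR, DESeq2 or limma).

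Omd encodes osteoadherin, a protein of mineralized tissue that binds integrin. It had 12 and 28 counts in the libraries labelled WT, 30 and 6 in the Tau libraries and 36 and 33 in the UNC0642 libraries. In CPM these were 0.473 in the library labelled WT replicate 1 and 1.09 in WT replicate 2, 1.07 and 0.343 in Tau, and 2.13 and 1.46 in UNC0642. The treated libraries were the highest 2 of 6, while the 2 Tau libraries differed 3.12-fold from each other. The log2 fold change against Tau was 1.25 (SE 0.58, 95% interval -0.03 to 2.53; edgeR, adjusted p = 0.572), which just missed the threshold. Of 14 alternative fits, 8 passed it and 6 did not, with values from 0.72 without Tau replicate 2 to 2.35 without Tau replicate 1. A filter of at least 10 counts in every library removed this gene.

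For Ogn the difference between UNC0642 and Tau was 0.72 on the log2 scale (SE 0.36, 95% interval -0.09 to 1.53; edgeR, adjusted p = 0.600), and 8 of 15 alternative fits passed the threshold. It was 0.44 without Tau replicate 2 and 0.43 without UNC0642 replicate 1. With a covariate for sex-linked expression the fitted values were 1.73 for Ogn, 2.23 for Omd and 1.32 for Fmod, each with an unadjusted p under 0.05 (edgeR). That covariate is estimated from the 2 WT libraries alone, since all Tau libraries had one pattern and all UNC0642 libraries the other. The values of Dcn (0.16), Bgn (-0.18), Lum (-0.31), Aspn (-0.25) and Prelp (-0.24) lay within 1 standard error of 0. Treated and vehicle-treated mice did not overlap for 5 of the 8 genes (Fmod, Omd, Ogn, Dcn and Aspn), beside 41.3% of all genes tested.

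The treated Tau mice were also compared with WT mice, to ask how far the 2 groups still differed. Bgn was 1.76-fold lower in treated Tau mice and was the only gene of the 8 to pass, where 9.47% of all genes passed in either direction and 5.69% passed with a lower level. Its log2 fold change was -0.81 (SE 0.28, 95% interval -1.44 to -0.18; edgeR, adjusted p = 0.297). The call was lost without the library labelled WT replicate 1 (-0.76) and without UNC0642 replicate 2 (-0.58) and held in the other 13 fits. By adjusted p-value (edgeR) 0 of the 8 genes were under 0.05, beside 0.216% of all genes, and 1 had an unadjusted p under 0.05. With 0 by adjusted p as well, the DESeq2 Wald test gave 1 gene by the unadjusted threshold (Bgn; 3 genes had no adjusted p) and limma-voom gave 2 (Bgn and Omd). Group levels of Bgn were 4.79 ± 0.25 CPM in WT, 3.05 ± 0.75 in Tau and 2.74 ± 0.64 in UNC0642 (mean ± SD, n = 2 each).

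The other members did not pass in UNC0642 against WT. Omd had the largest positive value, 1.18 (SE 0.57, 95% interval -0.09 to 2.44; edgeR, adjusted p = 0.444), which was 0.70 without the library labelled WT replicate 1 and 1.90 without WT replicate 2. For Fmod the difference was -0.18 with a 95% interval of -0.83 to 0.47, and for Ogn it was 0.02 with an interval of -0.76 to 0.80. These intervals do not show that the levels were equal. The median over the 8 genes was -0.13 on the log2 scale, beside -0.01 for all genes tested. Groups did not overlap for Bgn and Omd, 2 of 8 genes, where the share over all genes was 44.4%.

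**Figure D3:**
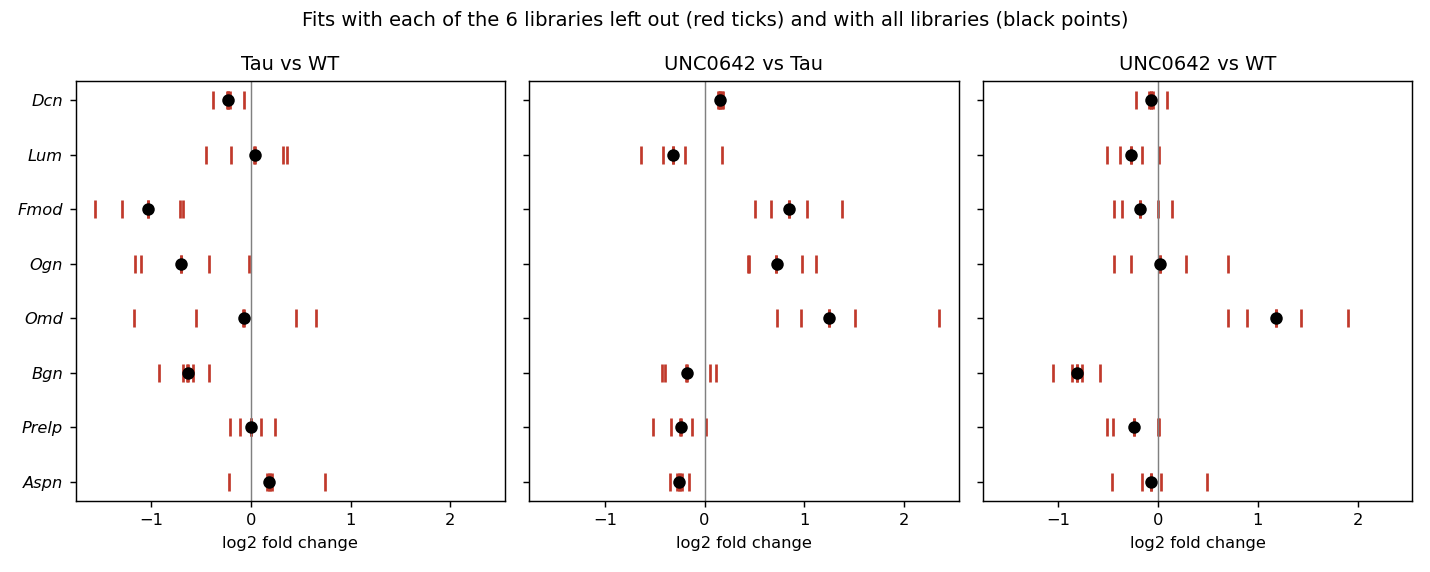
Log2 fold change (x axis) of each gene fitted with all 6 libraries (black point) and with each library left out in turn (red ticks) in the 3 comparisons. All ticks of Fmod stay left of 0 in Tau against WT, from -1.56 to -0.69, whereas those of Omd in that comparison range from -1.18 to 0.65.

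The 8 genes also differed between mice of the same group, and mostly together. WT replicate 2 was above the library labelled WT replicate 1 for 7 of 8 genes, the exception being Bgn. Tau replicate 1 was above Tau replicate 2 for all 8, and UNC0642 replicate 1 was above UNC0642 replicate 2 for all 8. The share of all genes tested with the same order was not counted, so the order does not set the family apart from other genes. Of the 8 genes, 5 had their highest value in WT replicate 2 and 5 had their lowest in Tau replicate 2. Summed over the family, the level was 29.8 CPM in the library labelled WT replicate 1 and 43.8 in WT replicate 2, 30.5 and 22.5 CPM in Tau, and 37.9 and 29.6 CPM in UNC0642, so the groups overlapped. Across the 6 libraries, which share depth and tissue make-up, Pearson's r of log2 CPM was 0.90 between Fmod and Ogn, 0.89 between Dcn and Ogn, 0.84 between Dcn and Fmod and 0.81 between Ogn and Omd. Lying in one cluster of the genome did not go with a higher value, with a median r of 0.35 over the 5 pairs of one cluster and 0.51 over the 23 pairs on different chromosomes, of which 20 were positive.

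The share of each gene among the summed counts of the 8 does not depend on the total. Fmod made up 21.4% in the library labelled WT replicate 1 and 21.8% in WT replicate 2, 16.2% and 12% in Tau, and 20.9% and 20.8% in UNC0642. The 95% Wilson intervals were 13.9% to 18.8% and 9.11% to 15.5% in the 2 Tau libraries, and the lowest bound among the other 4 libraries was 17.9%. Fmod was thus lower in both Tau libraries relative to its family as well, although the interval of Tau replicate 1 met those of the UNC0642 libraries and of the library labelled WT replicate 1. Bgn made up 16.7% and 10.5% in the libraries labelled WT, 11.7% and 11.2% in Tau and 8.44% and 7.74% in UNC0642. Dcn took the largest share in Tau replicate 2, with 31.0% (26.7% to 35.8%). These intervals cover counting error only.

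**Figure D4:**
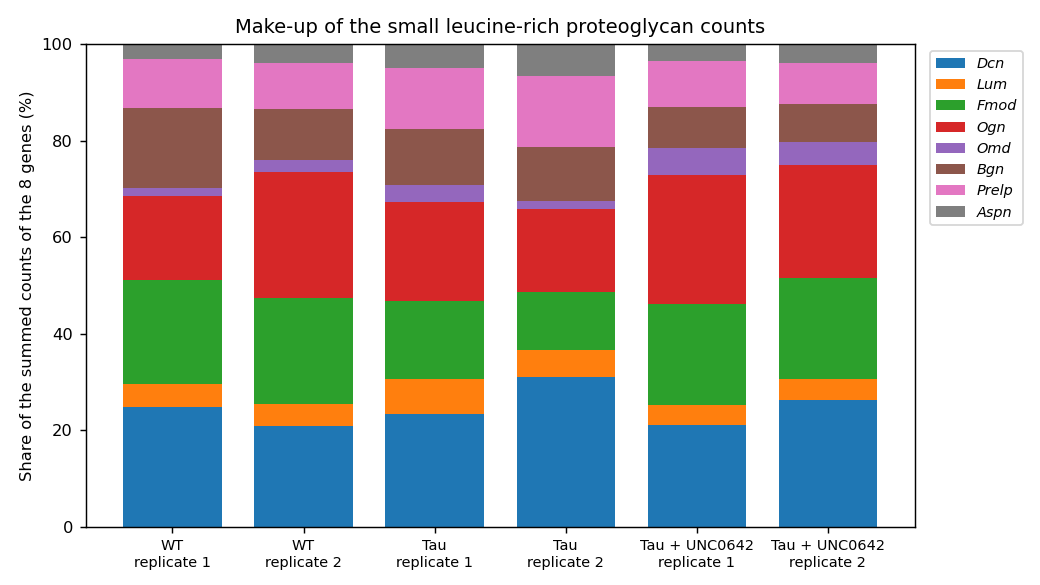
Share of each gene (%, stacked to 100) in the summed counts of the 8 genes for each of the 6 libraries. The green Fmod segment takes 16.2% and 12% in the Tau libraries and 20.8% to 21.8% in the other 4.

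The rest of the family and the genes that build, bind or accompany these proteoglycans were read from the same fits. Of 9 further family genes (Ecm2, Kera, Epyc, Optc, Chad, Nyx, Tsku, Podn and Podnl1), 6 had enough counts to be tested and none passed in any comparison by edgeR at an unadjusted p under 0.05. The fitted log2 fold changes between Tau and WT ranged from -0.93 for Nyx to 0.44 for Ecm2, and those between UNC0642 and Tau from -0.36 for Tsku to 0.75 for Nyx. Kera, the corneal keratan sulfate proteoglycan next to Lum, had 8 and 10 counts in the libraries labelled WT and 0 to 2 in the other 4, and was not tested. Chad had 0 to 4 counts and Podnl1 had 2 to 8 counts per library, and both were likewise too low. Among the 21 tested genes of chondroitin and dermatan sulfate synthesis, Chst14, the sulfotransferase of dermatan sulfate, was lower in Tau mice (-0.92, SE 0.41) and higher after UNC0642 (1.12, SE 0.42). It had 12 to 40 counts per library, the lowest 2 in the Tau libraries that both comparisons share, and neither call held without Tau replicate 2 (-0.89 and 1.09). Chst14 is also among the genes that the study selected on these libraries, so its direction is not independent evidence. Xylt1, which starts the chain on the core protein, was lower after UNC0642 than in Tau (-0.37, SE 0.10). No other gene of this list passed in the 3 comparisons, and its median log2 fold change lay between -0.06 and 0.0015. Of 7 keratan sulfate genes only B4galt4, a galactosyltransferase, passed, and it was higher in UNC0642 than in WT (0.36, SE 0.13), a call that was lost without the library labelled WT replicate 1 (0.32).

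Collagens are the main ligands of the family. Of 18 tested genes for fibrillar collagens and their processing, 6 were lower in Tau than in WT and 0 were higher, with a median log2 fold change of -0.51. Among all genes tested, 6.1% passed with a lower level in Tau than in WT. The shares were 3.73% with a higher level in UNC0642 than in Tau and 5.69% with a lower level in UNC0642 than in WT. The collagen genes lower in Tau included the fibril-forming Col5a2 (-1.33, SE 0.32) and Col11a1 (-1.11, SE 0.28), the fibril-associated Col12a1 (-0.81, SE 0.19) and Bmp1 (-0.57, SE 0.16), which cleaves procollagen. After UNC0642, Col3a1 (0.74, SE 0.26, named after its values were seen) and Col11a1 (0.67, SE 0.28) were higher than in Tau, and 16 did not pass. Against WT, 6 were lower in treated mice, with a median of -0.38. The Tau count was 5 without the library labelled WT replicate 1 and 6 without Tau replicate 2, and 2 genes of this list are among those that the study selected on these libraries. Of 11 tested receptors and growth factor ligands, Kdr, the VEGF receptor that decorin binds (-0.78, SE 0.18), and Bmp4 (-1.38, SE 0.49) were lower in Tau, none passed between UNC0642 and Tau, and Kdr (-0.79, SE 0.18) and Lrp1 (-0.32, SE 0.13) were lower in UNC0642 than in WT. Bmp4 did not pass without the library labelled WT replicate 1 (-1.31) or without Tau replicate 2 (-1.06). Bmp4 is also among the genes that the study selected on these libraries. Without the library labelled WT replicate 1, Col5a2 was -0.80 and Col11a1 was -0.67 in Tau against WT, and both still passed.

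Meningeal fibroblasts are a main source of these proteoglycans in the brain. Of 17 tested markers of meningeal fibroblasts, 6 were lower in Tau than in WT and 0 were higher, with a median of -0.58. Among all genes tested, 6.1% passed with a lower level in Tau than in WT, and 7.69% passed in either direction in UNC0642 against Tau. The markers lower in Tau included Crabp2 (-1.89, SE 0.56), a retinoic acid carrier, and the solute transporters Slc13a4 (-0.73, SE 0.26) and Slc6a13 (-0.72, SE 0.25). Crabp2 is among the genes that the study selected on these libraries, so its direction is not independent evidence. Without the library labelled WT replicate 1 the count was 11, and without Tau replicate 2 it was 1. Slc13a4 (-0.43) and Slc6a13 (-0.41) did not pass without Tau replicate 2. After UNC0642 only Igfbp2 passed against Tau, and it was lower (-0.31, SE 0.14), while the median of the list was 0.29. Against WT the median of the list in treated mice was -0.40, beside -0.01 for all genes tested. In that comparison 1 of 17 markers passed, with a lower level, where 5.69% of all genes did. The summed level of the list was 94.8 and 133 CPM in the libraries labelled WT, 93.3 and 74.0 CPM in Tau and 92.1 and 88.6 CPM in UNC0642, and no marker of the list was at 0 in all libraries. WT replicate 2 was the highest and Tau replicate 2 the lowest of the 6 libraries for this list and for the sum of the 8 proteoglycans. Its part in the results of Fmod, Ogn and Bgn was not tested.

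Other cell types were read in the same way. The shares of all genes tested that passed in either direction were 9.81% in Tau against WT, 7.69% in UNC0642 against Tau and 9.47% in UNC0642 against WT. Endothelial markers summed to 315 and 307 CPM in the libraries labelled WT, 258 and 274 CPM in Tau and 245 and 314 CPM in UNC0642, and of 12 tested 5 were lower and 1 was higher in Tau than in WT, 0 and 1 in UNC0642 against Tau, and 4 and 1 in UNC0642 against WT. Perivascular fibroblast and mural markers summed to 315 and 323, 309 and 310, and 274 and 272 CPM in the same order, and of 12 tested 2 were lower and 1 was higher in Tau than in WT. In UNC0642, 3 were lower and 0 were higher against Tau, with a median of -0.24, and 3 were lower and 1 was higher against WT, with a median of -0.40. Without the library labelled WT replicate 1 or Tau replicate 2, the Tau counts were 4 lower and 1 higher for endothelial markers, and 2 and 1 for mural markers. Erythroid genes, a sign of blood in the tissue, summed to 60.7 and 63.4 CPM in the libraries labelled WT, 39.7 and 39.0 CPM in Tau and 41.3 and 66.2 CPM in UNC0642, so Tau lay below WT without overlap. All 5 were tested and had levels in Tau below WT without overlap, where 43.2% of all genes tested did not overlap. Of the 5, 2 passed with a lower level, beside 6.1% of all genes tested. These were the globin Hbb-bs (-0.69, SE 0.16) and Alas2 of heme synthesis (-0.59, SE 0.25), the second not without the library labelled WT replicate 1. Against Tau, Hbb-bs (0.47, SE 0.16) and Hba-a1 (1.14, SE 0.45) passed with higher fitted values after UNC0642, neither without Tau replicate 2. The levels of Hba-a1 were 4.9 and 4.1 CPM in Tau and 4.1 and 15.4 CPM in UNC0642. The 2 groups thus overlapped, and only UNC0642 replicate 2 was high. Hba-a1 and Hba-a2 are near-identical copies, and the split of reads between them is uncertain. Of 6 oligodendrocyte markers, 3 passed with higher fitted values in Tau than in WT and 2 with lower ones in UNC0642 than in Tau. Tau and WT overlapped for each of the 6. Their summed level was 2709 and 1327 CPM in the libraries labelled WT, 1878 and 5114 CPM in Tau and 1945 and 2076 CPM in UNC0642. The high level in Tau was thus that of Tau replicate 2. Genes that the study selected on these libraries numbered 5 among the oligodendrocyte, 1 among the endothelial and 1 among the mural markers. The directions of these genes are not independent evidence. Choroid plexus markers summed to 13.5 CPM in the library labelled WT replicate 1, where the water channel Aqp1 alone gave 9.93 CPM, and to 3.98 to 6.64 CPM in the other 5. Ttr, the most abundant transcript of that tissue, had 6 and 24 counts in the Tau libraries and none in the other 4. The part of these cell types in the levels of the 8 proteoglycans was not tested.

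**Figure D5:**
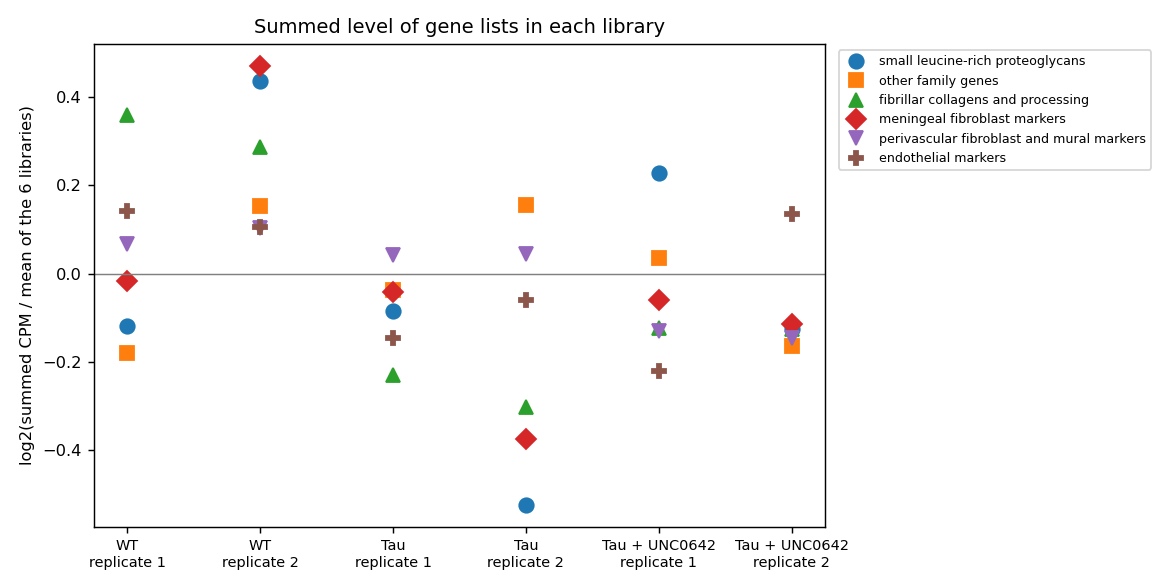
Summed CPM of 6 gene lists in each library, as log2 of the ratio to the mean of the 6 libraries (y axis). The proteoglycans and the meningeal fibroblast markers are both highest in WT replicate 2 and lowest in Tau replicate 2. The collagens are lower in the 4 Tau and UNC0642 libraries than in the 2 libraries labelled WT.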

How the data were processed

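Total RNA of the PFC was sequenced from stranded libraries after removal of ribosomal RNA. The authors trimmed reads with Cutadapt, aligned them to mouse RefSeq mRNAs with TopHat2 and deposited counts per gene from featureCounts without normalization; the strand setting of the counting was not given in the sources used here. The build in the submitters' processing notes is mm10. In 2 of the files, 26 gene names had become dates, and these were joined by position. Coordinates and exon lengths came from GENCODE M21, promoters from RefSeq.

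Counts were analysed with edgeR 4.0.16 in R 4.3.3 (filterByExpr, minimum count 10 and total 15, 20409 genes kept; TMM factors 0.966 to 1.04). All 6 libraries entered 1 quasi-likelihood model with separate group means, 3 residual degrees of freedom and a biological coefficient of variation of 12.3%. The spread of each gene was estimated partly from the other genes. Tests and intervals therefore rested on a median of 10.2 degrees of freedom. The procedure was tested on simulated data. To pass, a gene needed a fold change of 1.2 or more at an unadjusted p-value under 0.05. Adjusted p-values are Benjamini-Hochberg values over the whole table, and all p-values measure only the spread between these mice. Standard errors are the log2 fold change divided by the root of F. Tables and figures were made with Python 3.11.15, pandas 2.3.3, scipy 1.17.1 and matplotlib 3.10.9.

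Alternatives were DESeq2 1.42.0 size factors, library size alone, no filter, a minimum of 10 counts per library, a replicate block, a sex-linked covariate, the 2 compared groups alone, the DESeq2 Wald test, limma-voom (limma 3.58.1), adjusted p-values, and fits without each library, the last for other lists and their genes chosen after seeing the data. The 8 genes and the other lists were chosen with earlier results of these data known. Named were the 8 genes, the further family and sex-linked genes, Prnp and Mapt, up to 4 genes of a list that passed in a comparison, and the 5 genes most like the family. The antisense gene Gm15851, Cenpp, Slc17a7, Ttr, Aqp1, Cldn5, Hbb-bs, Hba-a1, Hba-a2 and Alas2 were named after their values were seen. Same-numbered libraries came from different mice, and the correlation of their deviations lay between -0.034 and -0.0033 over 20409 genes.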

Additional observations from a re-analysis of the deposited data

How the results depend on the processing

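Of 357 values of single genes under the alternatives, 286 kept direction and side of the threshold, 28 passed it newly, 10 lost it and 33 turned direction. The replicate block left the counts of genes that passed at 2, 1 and 1 in Tau against WT, UNC0642 against Tau and UNC0642 against WT, with medians of -0.19, -0.0004 and -0.13, and changed no call. The counts ranged from 0 to 3, from 0 to 3 and from 0 to 2 when a library was left out, and were 0 in each comparison with adjusted p-values. In UNC0642 against Tau the count was 2 with library size alone, the DESeq2 Wald test or limma-voom, and 3 with no filter, the sex-linked covariate or the 2 groups only. In UNC0642 against WT it was 2 with no filter, the sex-linked covariate, the 2 groups only or limma-voom. The median in UNC0642 against Tau was 0.54 with the sex-linked covariate. Without single libraries the medians lay between -0.69 and 0.11 in Tau against WT and between -0.45 and 0.11 in UNC0642 against WT.

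No gene turned direction and passed the threshold in the turned direction. In Tau against WT, Lum was -0.034 with library size alone and -0.13 with the sex-linked covariate, Aspn was -0.15 with that covariate and Prelp was 0.028 with limma-voom. With the covariate, UNC0642 against Tau gave 0.10 for Lum, 0.15 for Prelp and 0.64 for Aspn, and UNC0642 against WT gave 0.088 for Dcn, 0.11 for Fmod and 0.49 for Aspn. In the last comparison Ogn was -0.012 with library size alone and Aspn was 0.0029 with limma-voom. The cause was not tested. Without single libraries the ranges in Tau against WT were -0.45 to 0.36 for Lum, -1.18 to 0.65 for Omd, -0.21 to 0.24 for Prelp and -0.22 to 0.74 for Aspn. In UNC0642 against Tau they were -0.64 to 0.18 for Lum, -0.42 to 0.11 for Bgn and -0.51 to 0.010 for Prelp. In UNC0642 against WT they were -0.22 to 0.088 for Dcn, -0.51 to 0.0066 for Lum, -0.44 to 0.14 for Fmod, -0.44 to 0.70 for Ogn, -0.51 to 0.0078 for Prelp and -0.47 to 0.49 for Aspn. Counts of 6 to 36 limit Omd most.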

Other observations

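Over the 6 libraries, the genes whose log2 CPM followed the mean standardized level of the 8 proteoglycans most closely were Ccni, with a Pearson's r of 0.990, Sox21 with 0.987, Gm43593 with 0.987, C230057M02Rik with 0.986 and D930048N14Rik with 0.980. Of 16872 genes compared, 116 had an r above 0.9, and the 6 points share depth and tissue make-up. The range of Ccni was 197.5 to 215 CPM, far narrower than that of the proteoglycans. Cenpp, whose gene body contains Aspn, Omd and Ogn on the opposite strand, was lower in Tau than in WT by a log2 fold change of -0.91 (SE 0.40) and had a value of 0.74 (SE 0.41) in UNC0642 against Tau, which did not pass. Its Tau value was -1.13 without the library labelled WT replicate 1 and -1.21 without Tau replicate 2. Reads from Cenpp introns and from these genes can be told apart only if the counting used strand.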
